A study of Homo sapiens with 6 samples.

Results

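The genes described here are the enzymes of the pentose phosphate pathway and of glycolysis, together with 3 genes of gluconeogenesis and the sugar and lactate carriers of the plasma membrane. They were taken by symbol from a fixed list of 40 genes, of which 39 have a row among the 22077 genes of the count table. PKLR was not analysed here. RNA sequencing was used to compare cultured human hepatocellular carcinoma cells that overexpressed transketolase (TKT) with control cells, in 3 cultures each. The overexpressing cells received a TKT expression plasmid with GFP and puromycin markers by transfection and were then selected, and the control libraries are labelled VC and wild type. The labels give the cell line as Hu7, whereas the study's text names Huh7 in one place and HCCLM3 in another, and both groups share that line and a high-glucose medium with serum. No source used here says whether the selected cells were a clone or a pool, nor what the control cells carried. The labels number the cultures as separate biological samples, and p-values measure the spread between those samples.

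The pentose phosphate pathway branches from glycolysis at glucose phosphate. Its oxidative arm makes NADPH, which cells spend on lipid synthesis and on keeping glutathione reduced, and ends in a pentose phosphate. Its non-oxidative arm, run by transketolase and transaldolase, is reversible and moves carbon between pentose phosphates and the sugar phosphates of glycolysis, so that it can make ribose for nucleotides or return surplus pentose to glycolysis. Hepatocytes can run glycolysis backwards to release glucose, whereas hepatoma cells commonly replace the liver forms of glycolytic enzymes with forms found in most growing cells.

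Totals ran from 30148788 to 37096156 counts per library and TMM factors, which rescale library sizes, from 0.990 to 1.015. Of the 12 hepatocyte markers, 11 had at least 1568 counts in every library, led by AFP and ALB. APOB, the remaining one, had 0 to 6 counts. Markers of endothelial, immune and stromal cells reached 717 counts (PECAM1) at most, while VWF, CD3E and LUM had 2 counts or fewer in each library. Levels are given below as CPM (counts scaled by library size and TMM) for comparisons of a gene between groups, and as deposited FPKM, which divides by gene length, for comparisons between genes. Of the 22077 genes, 14162 passed a filter on low counts and were tested with edgeR's quasi-likelihood test, with Benjamini-Hochberg adjustment over all of them. Genes whose adjusted p-value fell under 0.05 are referred to as called.

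TKT, the introduced gene, checks the labels. It had 51.8, 49.6 and 53.6 FPKM in the control libraries and 985, 991 and 1000 FPKM in the overexpressing libraries. The ranges were far apart and the 3 overexpressing libraries differed little from each other. In CPM the rise was from 494 ± 23.0 to 9448 ± 88.0 (SD, n = 3 each). This was 4.26 on the log2 scale, with a standard error of 0.04 (adjusted p = 1.15e-25). The gene lies on the minus strand of chromosome 3 (53224707 to 53256052, GRCh38, GENCODE 29). Plasmid and chromosomal transcripts were counted in the same row and cannot be told apart, so TKT is left out of every summary of the other members below.

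Of the 40 listed genes, 30 passed the filter on low counts. Among them 3 were called higher in overexpressing cells, TKT included. Without the introduced gene 2 of 29 were called higher, where 5.69% of all tested genes were called higher. The other risers were PFKFB3, which makes the activator of phosphofructokinase, and SLC2A2, the liver glucose carrier. A further 5 members were lower, where 4.94% of all tested genes were called lower, and these were PFKL, TPI1, PGK1 and GPI of glycolysis and the lactate exporter SLC16A3. In either direction 10.6% of all tested genes were called. TKT alone also passed an absolute log2 fold change of 1, a threshold that 0.727% of all tested genes met together with the adjusted p-value. Among the 29 tested members other than TKT, 22 (75.9%) had a log2 fold change below 0, against 49.8% of all tested genes. Their median was -0.08, and that of all tested genes was 0.00. In 17 of these 29 members the groups of libraries did not overlap, which held for 28% of all tested genes. Several members varied together between libraries, so these shares do not count independent genes. Beside TKT itself, the members together took 1.504% to 1.574% of the counts in the control libraries and 1.39% to 1.49% in the overexpressing libraries. TKT rose from 0.0473% to 0.0511% of counts in control libraries to 0.939% to 0.953%, and leaving its row out of the scaling gave the same numbers of members called, 3 higher and 5 lower.

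**Figure D1:**
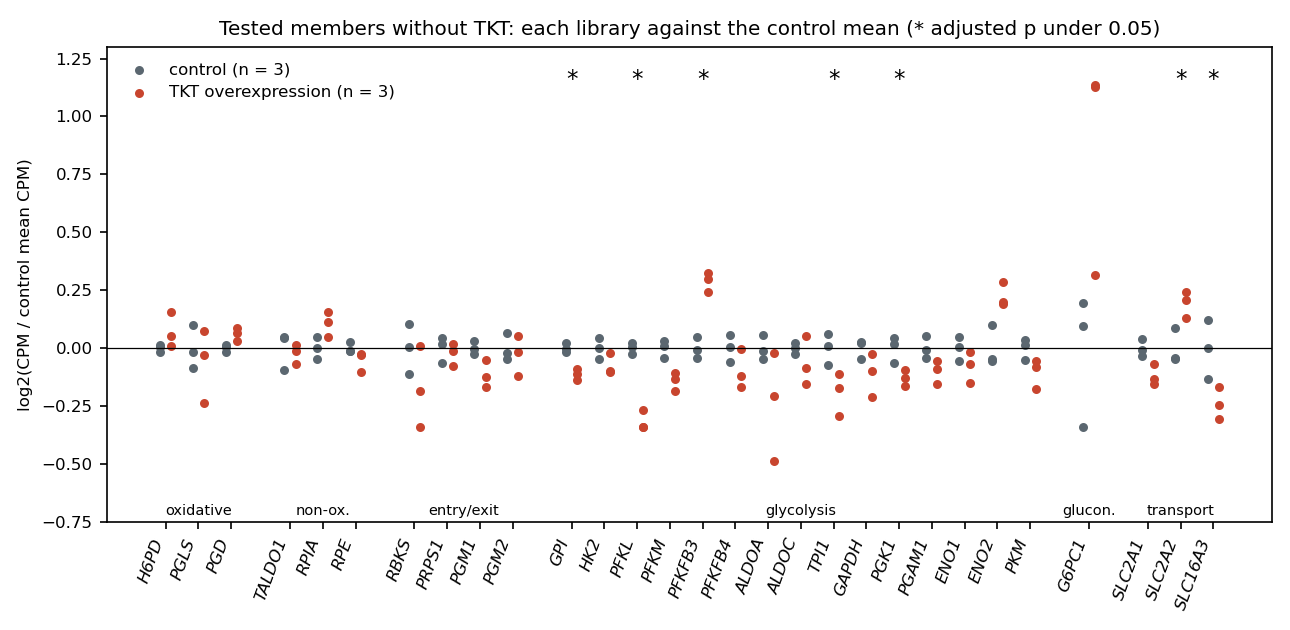
Each point is the log2 ratio of a library's CPM to the mean of the 3 control libraries, for the 29 tested members other than TKT, grouped by arm and with an asterisk where the adjusted p was under 0.05. Most glycolytic genes have their 3 overexpressing libraries just under 0, whereas PFKFB3 and SLC2A2 lie above their controls and PFKL well below.

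The upstream windows of the 5 called members of glycolysis, the 4 genes that fell and PFKFB3, are shown as the sequence context of these genes. Those of the called carriers SLC2A2 and SLC16A3 were searched but are not shown. The windows are the 250 bases before an annotated RefSeq transcript start (GRCh38.p14, 5′ to 3′ on the gene's strand). Capitals mark ACGTG on either strand, the core of the hypoxia response element, which also lies within the E-box CACGTG bound by MYC and ChREBP, and GGGCGG on either strand, the GC box bound by Sp1. PFKFB3 and TPI1 each have 2 annotated starts in the table, and both windows are shown.
PFKL (chr21:44299803-44300052, plus strand): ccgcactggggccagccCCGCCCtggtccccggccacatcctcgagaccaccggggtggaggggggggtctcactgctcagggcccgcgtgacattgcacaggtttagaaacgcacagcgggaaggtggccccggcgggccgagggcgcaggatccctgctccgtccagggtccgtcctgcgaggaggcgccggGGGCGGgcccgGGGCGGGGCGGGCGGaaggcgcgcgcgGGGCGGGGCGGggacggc
TPI1, upstream start (chr12:6867281-6867530, plus strand): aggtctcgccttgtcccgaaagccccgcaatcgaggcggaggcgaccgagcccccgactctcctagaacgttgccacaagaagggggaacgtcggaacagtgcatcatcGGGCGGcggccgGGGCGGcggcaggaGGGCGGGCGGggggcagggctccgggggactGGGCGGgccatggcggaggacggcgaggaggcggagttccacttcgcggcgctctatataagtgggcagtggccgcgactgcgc
TPI1, downstream start (chr12:6867855-6868104, plus strand): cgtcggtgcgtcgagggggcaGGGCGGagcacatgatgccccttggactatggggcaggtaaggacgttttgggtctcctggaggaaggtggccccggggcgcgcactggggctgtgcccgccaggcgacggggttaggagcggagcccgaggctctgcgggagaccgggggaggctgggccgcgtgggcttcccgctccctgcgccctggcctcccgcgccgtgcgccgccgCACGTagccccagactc
PGK1 (chrX:78103998-78104247, plus strand): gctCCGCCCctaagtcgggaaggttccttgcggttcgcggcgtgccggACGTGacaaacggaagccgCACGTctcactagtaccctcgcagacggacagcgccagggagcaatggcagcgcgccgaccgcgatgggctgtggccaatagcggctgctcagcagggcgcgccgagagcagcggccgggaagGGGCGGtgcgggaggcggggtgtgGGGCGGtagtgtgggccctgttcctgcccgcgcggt
GPI (chr19:34364742-34364991, plus strand): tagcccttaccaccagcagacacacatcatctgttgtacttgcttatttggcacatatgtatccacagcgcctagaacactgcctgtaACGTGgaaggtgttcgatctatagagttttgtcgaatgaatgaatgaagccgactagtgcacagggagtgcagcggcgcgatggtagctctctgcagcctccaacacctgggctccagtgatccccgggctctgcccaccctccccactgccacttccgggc
PFKFB3, upstream start (chr10:6144671-6144920, plus strand): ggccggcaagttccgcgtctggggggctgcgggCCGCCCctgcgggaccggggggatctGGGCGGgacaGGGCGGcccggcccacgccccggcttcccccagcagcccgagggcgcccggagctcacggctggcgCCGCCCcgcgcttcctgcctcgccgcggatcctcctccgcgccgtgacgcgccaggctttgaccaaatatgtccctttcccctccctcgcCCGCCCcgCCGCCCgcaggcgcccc
PFKFB3, downstream start (chr10:6202682-6202931, plus strand): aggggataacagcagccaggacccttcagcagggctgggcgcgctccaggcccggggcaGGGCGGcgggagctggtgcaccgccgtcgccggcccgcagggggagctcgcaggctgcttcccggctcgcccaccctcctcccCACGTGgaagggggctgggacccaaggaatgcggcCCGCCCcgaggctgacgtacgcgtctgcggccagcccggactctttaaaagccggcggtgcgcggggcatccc

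PGK1 holds ACGTG with its first base 202 and 183 bases before the start, and GPI holds it once at 162. The downstream PFKFB3 window holds CACGTG at 108, whereas the upstream one holds no ACGTG and 6 copies of GGGCGG. The downstream TPI1 window holds ACGTG at 17, whereas the upstream one holds none and 5 copies of GGGCGG. PFKL holds no ACGTG and 7 copies of GGGCGG, some of them overlapping. Windows with ACGTG and windows with GGGCGG were found both among the genes that fell and for PFKFB3, which rose. The 7 called members other than TKT have 13 windows in the table, of which 1 holds CACGTG, 5 hold ACGTG and 9 hold GGGCGG. Of 35116 windows of the same length over all genes, 6.34%, 18.5% and 42.6% did. Several of the 13 windows belong to SLC16A3, and their GC content ran from 48.8% (SLC2A2) to 83.2% (an SLC16A3 window). The windows over all genes were not matched for GC content, and enrichment was not tested. These are letter matches in the reference, and which start the cells used was not measured.

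The oxidative arm did not pass the test in either direction. Its 3 members had log2 fold changes from -0.06 to 0.07, with a median of 0.06. PGD, which releases NADPH while turning phosphogluconate into ribulose phosphate, had 418, 412 and 421 CPM in control and 437, 443 and 426 CPM in overexpressing libraries. Its overexpressing libraries all lay above the controls, with a log2 fold change of only 0.06 ± 0.03 (standard error), which did not pass (adjusted p = 0.3). PGLS, the lactonase of the arm, had 67.1, 64.0 and 72.7 CPM in control and 66.5, 71.5 and 57.6 CPM in overexpressing libraries. The ranges overlapped, with the third overexpressing library lowest of the 6 (log2 fold change -0.06, adjusted p = 0.678). H6PD, which makes NADPH inside the endoplasmic reticulum, had 49.5, 49.2 and 48.5 CPM in control and 54.7, 49.4 and 50.9 CPM in overexpressing libraries. It was higher in 1 overexpressing library and close to control in the others (log2 fold change 0.07, adjusted p = 0.462).

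In the non-oxidative arm no partner of TKT passed the test. TALDO1, the transaldolase that shares substrates with transketolase, had 469, 425 and 468 CPM in control and 451, 458 and 433 CPM in overexpressing libraries. All 3 overexpressing values lay within the control range (log2 fold change -0.02, standard error 0.04, adjusted p = 0.804). RPIA, the isomerase that makes ribose phosphate, had 41.4, 42.8 and 44.2 CPM in control and 46.3, 47.7 and 44.2 CPM in overexpressing libraries. The highest control and the lowest overexpressing library nearly met (log2 fold change 0.11, adjusted p = 0.275). RPE, the epimerase that makes xylulose phosphate, had 81.7, 81.7 and 84.0 CPM in control and 81.1, 76.8 and 80.9 CPM in overexpressing libraries. It sat slightly lower in each overexpressing library (log2 fold change -0.05, adjusted p = 0.602). Without TKT the median of the arm was -0.02.

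The level of TKT relative to its partners therefore changed without a detectable change in the partners. In control libraries TKT stood at 51.7 ± 2.00 FPKM, below PGD at 124 ± 0.359 and TALDO1 at 155 ± 7.41 (SD, n = 3), and these ranges did not meet. PGLS, RPIA and RPE lay between 22.5 and 25.3 FPKM on average in either group, within each other's spread in most cases, and H6PD at 5.24 ± 0.0797 FPKM in control. In overexpressing libraries TKT, at 992 ± 7.32 FPKM, exceeded every other gene of the pathway. The deposited FPKM divides TKT by 9535 bases, close to the merged length of all its annotated exons. Per kilobase of the principal transcript, a scale chosen after the data were seen, TKT stood at 164 ± 7.63 CPM in control. This was still below PGD at 221 ± 2.35 and TALDO1 at 337 ± 18.9. PGLS, RPE and RPIA were no longer alike on that scale, at 66.1 ± 4.31, 32.1 ± 0.523 and 23.2 ± 0.763 CPM in control.

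**Figure D2:**
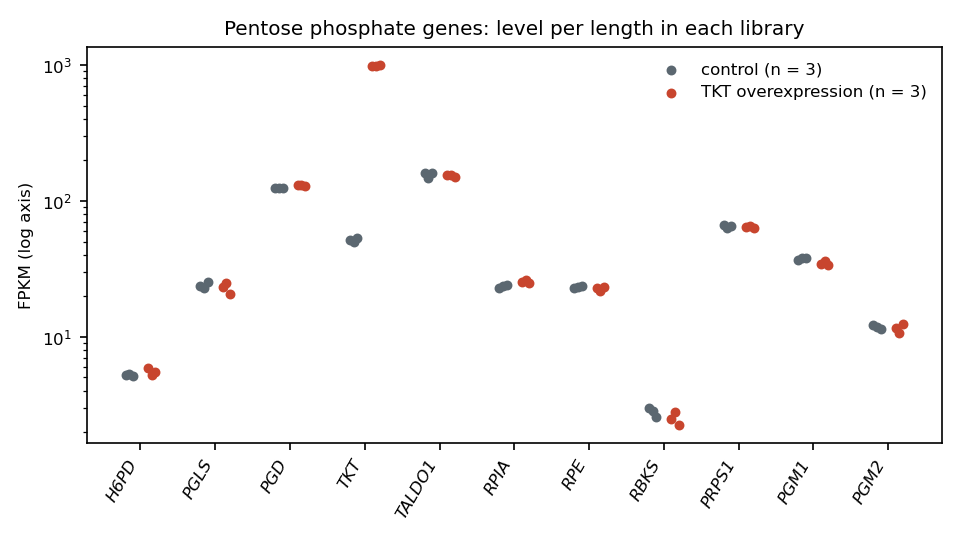
FPKM (log axis) of the 11 tested pentose phosphate genes in each control and overexpressing library. TKT moves from about 50 to nearly 1000 FPKM, while each of the other genes has its 2 groups side by side.

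The genes that lead pentose and hexose phosphates in and out of the pathway gave 0 of 4 tested members called by edgeR at the adjusted p-value and log2 fold changes from -0.17 to -0.02. PGM1 alone had an unadjusted p-value under 0.05, and no alternative, DESeq2 included, called any of the 4. PRPS1, which activates ribose for nucleotide synthesis, had a log2 fold change of -0.02 (adjusted p = 0.792), and PGM2 had -0.03 (adjusted p = 0.856). Both turned above 0 in at least 1 alternative. RBKS, the kinase that lets free ribose enter, was the least abundant at 2.80 ± 0.211 FPKM in control and had a log2 fold change of -0.17 with a standard error of 0.13. PGM1, the link to glycogen, had 151, 153 and 157 CPM in control and 141, 148 and 136 CPM in overexpressing libraries. Its groups did not overlap and its log2 fold change of -0.11 had an adjusted p of 0.103. PGM1 made up 76.1% ± 1.07 of the summed FPKM of PGM1 and PGM2 in control and 74.9% ± 1.88 on overexpression (SD, n = 3, exact two-sided permutation test, p = 0.4). The difference of -1.16 percentage points was -2.16 without the second and -0.284 without the third overexpressing library, and -0.676 without the third control library.

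Glycolysis held the largest number of called members, and with 15 genes also the most tested members. Of these 15 genes, 4 fell, 1 rose and 10 did not pass. Over all tested genes, 4.94% were called lower and 5.69% higher. The log2 fold changes of 13 of the 15 (86.7%) lay below 0, against 49.8% of all tested genes. The median of the 15 was -0.10, with a range from -0.32 to 0.29. In 9 of the 15 the groups did not overlap, which held for 28% of all tested genes. These genes did not vary independently. For TPI1, GAPDH, PGK1, PGAM1, ENO1 and PKM alike, the second library was the lowest control and the highest overexpressing one. The shares above therefore do not count independent genes, and no test was made of them. All the falls were under 20% of the control level.

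PFKL, the liver form of phosphofructokinase, which commits sugar to glycolysis, had the largest fall. It had 143, 146 and 148 CPM in control and 121, 115 and 115 CPM in overexpressing libraries. The groups were clearly apart and each overexpressing library lay below every control (log2 fold change -0.32, standard error 0.04, adjusted p = 4.47e-05), a fall of 19.7%. PFKM, the muscle form of the same enzyme, had 94.5, 90.9 and 95.8 CPM in control and 87.1, 82.5 and 85.4 CPM in overexpressing libraries. These groups were also apart, though the difference was smaller and did not pass (log2 fold change -0.14, adjusted p = 0.0706). PFKL supplied 55.7% ± 0.760 of the summed FPKM of the phosphofructokinase genes in control and 52.6% ± 0.537 on overexpression, with every overexpressing library lower. The exact two-sided permutation test gave p = 0.1, the smallest that 3 libraries against 3 allow, and 0.2 after adjustment over the 14 shares compared. How large this share is depends on the lengths used, since FPKM divided PFKL by 8957 bases and its principal transcript has 2912.

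PFKFB3 went the other way. It encodes a kinase that makes fructose bisphosphate of the regulatory kind, the strongest known activator of phosphofructokinase. It had 74.9, 78.0 and 73.1 CPM in control and 94.4, 92.7 and 89.2 CPM in overexpressing libraries. The lowest overexpressing library was well above the highest control (log2 fold change 0.29, standard error 0.05, adjusted p = 0.000576), a rise of 22.2%. PFKFB4, its paralog, had overlapping groups and did not pass (log2 fold change -0.10, standard error 0.08, adjusted p = 0.509). The share of PFKFB3 in the summed FPKM of both genes was 74.0% ± 0.668 in control and 78.8% ± 1.45 on overexpression (exact two-sided permutation test, p = 0.1, adjusted 0.2). PFKL and PFKFB3 were the only members other than TKT called in all 14 alternative analyses.

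TPI1, the isomerase that makes both triose products of aldolase usable, had 1465, 1386 and 1522 CPM in control and 1294, 1347 and 1191 CPM in overexpressing libraries. Every overexpressing library lay below every control, with the second library of each group nearest to the other group (log2 fold change -0.19, standard error 0.04, adjusted p = 0.00964). PGK1, the first step of glycolysis that yields ATP, had 552, 522 and 561 CPM in control and 498, 510 and 486 CPM in overexpressing libraries. The groups were again apart and again nearest in their second libraries (log2 fold change -0.13, standard error 0.04, adjusted p = 0.0274). GPI, which interconverts glucose and fructose phosphates at the branch point with the pentose phosphate pathway, had 392, 385 and 381 CPM in control and 363, 357 and 351 CPM in overexpressing libraries. It fell by 7.54% with little spread in either group (log2 fold change -0.11, standard error 0.03, adjusted p = 0.0387). TPI1 was called in 13 of the 14 alternatives, PGK1 in 7 and GPI in 5.

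**Figure D3:**
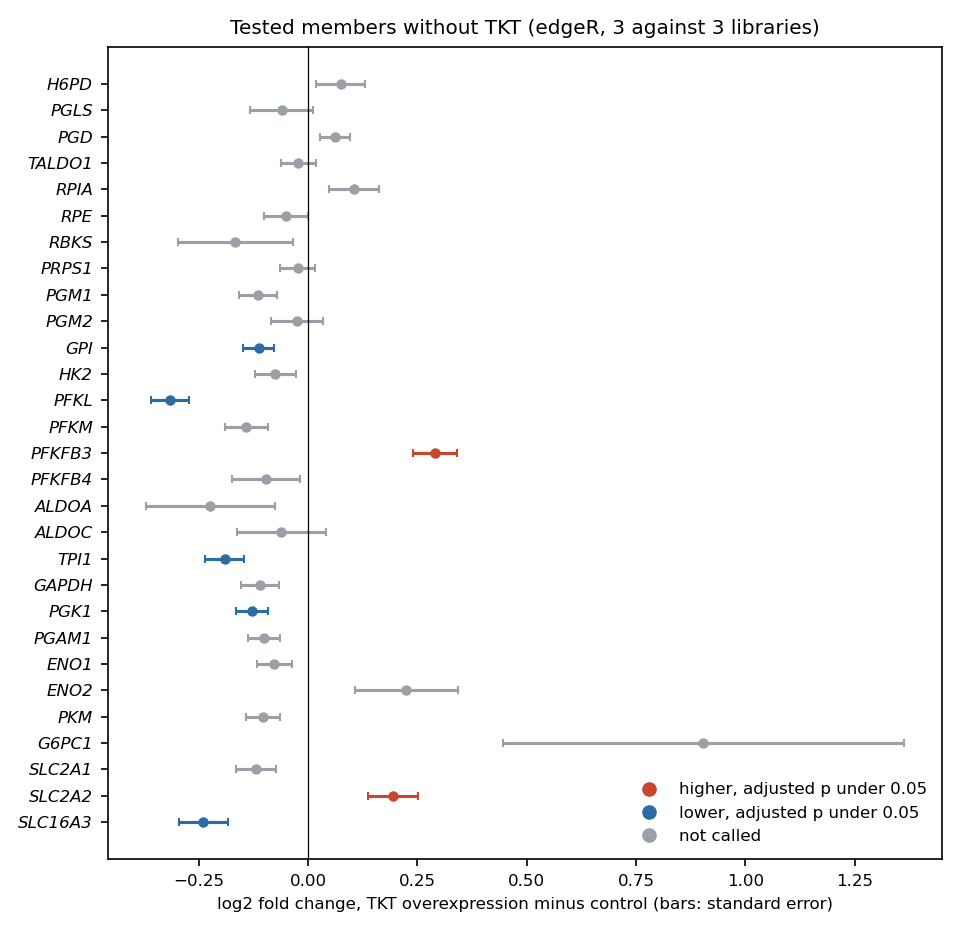
Log2 fold change of the 29 tested members other than TKT, overexpressing minus control, with standard errors from edgeR (n = 3 each). The pentose phosphate genes at the top scatter on both sides of 0, glycolytic genes lie mostly between -0.32 and 0, and PFKFB3 stands out at 0.29.

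The other tested enzymes of glycolysis did not pass in the reported fit. Of the 14 alternatives, 3 called GAPDH, 3 called PKM, 1 called PGAM1 and 1 called PFKM. GAPDH, the most abundant member at 1679 ± 34.3 FPKM in control, had 4105, 3911 and 4119 CPM there and 3777, 3974 and 3496 CPM in overexpressing libraries. Its ranges overlapped, since the second overexpressing library exceeded the second control (log2 fold change -0.11, adjusted p = 0.115). PGAM1 and PKM had groups that did not overlap, with log2 fold changes of -0.10 for both and adjusted p-values of 0.0913 and 0.0968. ENO1, HK2, ALDOC and ALDOA had log2 fold changes of -0.08, -0.07, -0.06 and -0.22 with overlapping groups. ENO2, the neuronal enolase, had 9.23, 8.33 and 8.28 CPM in control and 9.82, 9.89 and 10.5 CPM in overexpressing libraries. It was higher in each overexpressing library but did not pass (log2 fold change 0.22, standard error 0.12, adjusted p = 0.261), and ENO1 kept over 99% of the summed enolase FPKM in both groups, 99.7% ± 0.0214 in control.

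Per length, GAPDH was followed in control by ENO1 at 632 ± 17.7 FPKM, TPI1 at 537 ± 20.9, PGAM1 at 359 ± 9.55 and PKM at 275 ± 6.64, and PGK1 stood at 99.6 ± 2.98. No neighbouring pair in that order overlapped between control libraries. ENO1 and PKM have no principal transcript length here, so their places were read in FPKM only. HK2 and PFKL, which act at early control points, stood lower, at 20.1 ± 0.691 and 16.2 ± 0.317 FPKM. Their order depends on the lengths used. FPKM divided PFKL by 8957 bases, whereas its principal transcript has 2912. Per kilobase of the principal transcript, HK2 stood at 20.7 ± 0.675 and PFKL higher, at 49.9 ± 0.832 CPM in control. ALDOA stood at 1.85 ± 0.0815 FPKM, far below the enzymes on either side of it. Of its 3916 annotated exon bases, 1657 are shared on the same strand with another gene, AC093512.2, and its low value was not read as its expression.

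Of the gluconeogenesis genes, only G6PC1, the phosphatase that releases glucose from liver cells, passed the filter. It had 0.446, 0.329 and 0.477 CPM in control and 0.917, 0.519 and 0.912 CPM in overexpressing libraries, from 10 to 34 counts per library. Each overexpressing library was above each control, but the second one only just (log2 fold change 0.90, standard error 0.46, adjusted p = 0.241). FBP1 had 4 to 16 counts and PCK1 0 to 2 counts per library and were not tested.

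Among the carriers, SLC2A2 rose and SLC16A3 fell. SLC2A2 (GLUT2), the low-affinity glucose carrier of hepatocytes, had 42.7, 46.6 and 42.6 CPM in control and 50.8, 48.1 and 52.0 CPM in overexpressing libraries. The second control library approached the second overexpressing one without meeting it (log2 fold change 0.19, standard error 0.06, adjusted p = 0.0346). SLC2A1 (GLUT1), the high-affinity carrier common in growing cells, had 119, 117 and 123 CPM in control and 109, 114 and 107 CPM in overexpressing libraries. Its groups were apart but its log2 fold change of -0.12 had an adjusted p of 0.11. SLC2A2 made up 41.6% ± 1.79 of the summed FPKM of SLC2A1, SLC2A2 and SLC2A3 in control and 46.9% ± 1.71 on overexpression (exact two-sided permutation test, p = 0.1, adjusted 0.2). The level of this share depends on the gene lengths used. FPKM divided SLC2A1 by 6637 bases, whereas its principal transcript has 3670. Per kilobase of the principal transcript, SLC2A1 stood at 32.6 ± 0.833 and SLC2A2 at 13.7 ± 0.719 CPM in control. SLC16A3 (MCT4), which exports lactate, had 227, 206 and 246 CPM in control and 191, 202 and 183 CPM in overexpressing libraries. The control libraries spread widely, and the lowest of them was just above the highest overexpressing library (log2 fold change -0.24, standard error 0.06, adjusted p = 0.0161). SLC2A2 was called in 7 and SLC16A3 in 8 of the 14 alternatives.

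Of the 39 genes with a row, 9 did not pass the filter and were not tested. LDHA and LDHB, the lactate dehydrogenase subunits, had 2 to 6 and 1 to 7 counts per library. HK1 had 0 to 2, PFKP 4 to 17, PRPS2 0 to 6, SLC2A3 0 to 12 and SLC16A1 0 to 6 counts. FBP1 and PCK1 are given above. These counts cannot be read as absence of the transcripts, because genes that every cell uses were also listed near 0. Examples, chosen after the values were seen, were the ribosomal protein genes RPS18 (1 to 5 counts) and RPS25 (0 to 2), the elongation factor EEF1G (0 to 2) and the proteasome gene PSMB3 (0 to 2). Of 76 cytosolic ribosomal protein genes in the table, 2 had at most 20 counts in every library, and so had 2 of 35 proteasome genes. In GENCODE 29, EEF1G shares 2714 of its 2716 exon bases and LDHB 997 of 2983 with another gene on the same strand, whereas LDHA, HK1, PRPS2 and SLC16A1 share 0. How the annotation or the handling of reads with several matches acted on these rows was not tested.

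**Figure D4:**
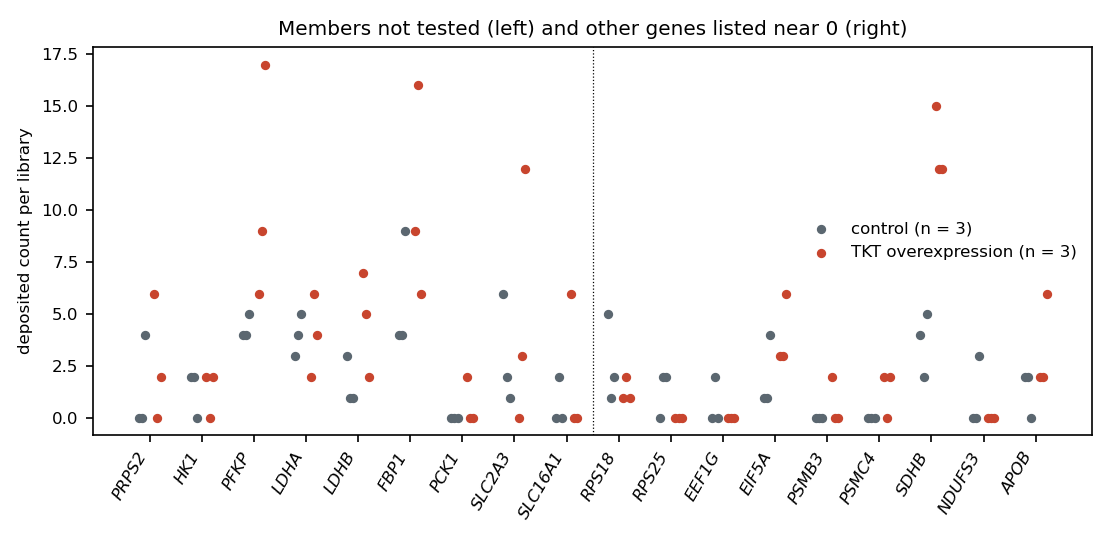
Deposited counts per library of the 9 members that were not tested (left of the dotted line) and of 9 other genes listed near 0 (right), for 3 control and 3 overexpressing libraries. No value exceeds 17 counts, and widely used genes such as RPS18 and EEF1G lie as low as LDHA.

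Further genes of carbohydrate metabolism were read from a list of 86, of which 78 have a row and 63 were tested. Of these, 6 rose, 7 fell and 50 did not pass, where 5.69% of all tested genes were called higher and 4.94% lower. A log2 fold change below 0 was found for 33 (52.4%), against 49.8% of all tested genes. None of the 8 tested neighbours of the pentose phosphate pathway was called by edgeR at the adjusted p-value, and 2 of them, PRPSAP1 and TIGAR, had an unadjusted p-value under 0.05. Among the called genes, TXNIP and AKR1B1 had the largest log2 fold changes. TXNIP, an inhibitor of glucose uptake induced by the sugar sensor ChREBP, had 14.07, 12.01 and 12.69 CPM in control and 24.2, 26.3 and 26.6 CPM in overexpressing libraries. Each overexpressing library lay above every control (log2 fold change 0.99, adjusted p = 1.28e-07). AKR1B1, which reduces glucose to sorbitol, had 4.90, 3.85 and 3.81 CPM in control and 8.28, 7.68 and 8.73 CPM in overexpressing libraries, again with groups far apart (log2 fold change 0.97, adjusted p = 0.000166).

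ENO3, the muscle enolase, rose by 0.48 on the log2 scale (adjusted p = 0.000496) and MYC by 0.21 (adjusted p = 0.0053). MYCN, a relative of MYC, had 118, 114 and 108 CPM in control and 79.2, 82.8 and 83.4 CPM in overexpressing libraries. Each overexpressing library lay below every control (log2 fold change -0.47, adjusted p = 9.29e-07). GYS1, the glycogen synthase, fell by 0.24 on the log2 scale, GALK1, the galactokinase, by 0.29, PDK3, a kinase that restrains pyruvate dehydrogenase, by 0.33, MPI, the mannose phosphate isomerase, by 0.17, and MLXIPL, which encodes ChREBP, by 0.28 (adjusted p from 0.00466 to 0.0391). TXNIP, AKR1B1, ENO3, MYCN, GYS1 and MYC were called in all 14 alternatives, GALK1 in 11, PDK3 in 8, and MLXIPL and MPI in 6 each. The 3 remaining called genes, named after their values were seen, were HIF1A, higher by 0.15, CREB3L3, higher by 0.17, and SORD, lower, with a log2 fold change of -0.16.

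**Figure D5:**
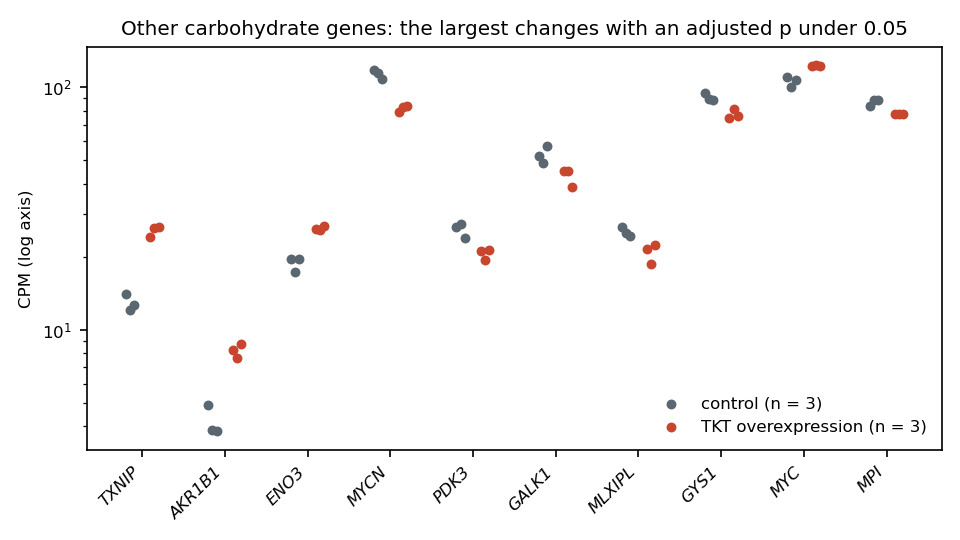
CPM (log axis) in each library of the 10 other carbohydrate genes with the largest change among those called. TXNIP and AKR1B1 rise the most, each with all 3 overexpressing libraries above all 3 controls, and MYCN is the gene with the largest fall.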

How the data were processed

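RNA from 3 TKT-overexpressing and 3 control cultures was sequenced as paired-end reads. According to the submitters' processing notes and the study's methods, the authors trimmed reads with fastp 0.22.0, aligned them to hg38 with HISAT2 2.1.0 and summarised them by gene in featureCounts. The annotation, strand setting and treatment of reads with several matches are not given in the sources used here. The authors deposited whole-number counts without normalization, and FPKM values.

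The test used edgeR 4.0.16 under R 4.3.3 (filterByExpr, minimum count 10, TMM, robust quasi-likelihood test, group only), with Benjamini-Hochberg adjustment over all tested genes. Depth was 30148788 to 37096156 counts per library. The biological coefficient of variation common to all genes was 0.113. Shares of paralogs in summed FPKM were compared by exact permutation over libraries. Positions came from GENCODE 29 and promoter windows from RefSeq. Library pairs within a group differed by more than sampling noise.

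The members and lists were chosen with earlier results of these data known. Values in every library were given for TKT, for the oxidative and non-oxidative arms, for called members and for tested members with an absolute log2 fold change over 0.5, and names among the other carbohydrate genes went to the up to 10 largest called changes. Per-library values of PGM1, PFKM, GAPDH, ENO2 and SLC2A1 were added after the values were seen. Alternatives were DESeq2 1.42.0, other scalings and filters, limma 3.58.1 on log2(FPKM + 1) and log2(FPKM + 0.1), a replicate block, and each library left out.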

Additional observations from a re-analysis of the deposited data

How the results depend on the processing

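TKT, PFKL and PFKFB3 were called in each of the 14 alternatives. Glycolysis had 13 of 15 tested members below 0 in each of them. The number of members called lower, counted over all arms, depended on the setting. From 5, it went to 7 with DESeq2 and to 6 with no filter on low counts. It went to 2 with limma on log2(FPKM + 1), to 2 on log2(FPKM + 0.1), and to between 2 and 8 with a library left out. It was 8 without control replicate 2, 3 without control replicate 3, 2 without control replicate 1, without TKT overexpression replicate 1 or without TKT overexpression replicate 3, and 5 without TKT overexpression replicate 2. With the replicate block it was 1 (PFKL), with 697 of all tested genes and 6 other carbohydrate genes called. The replicate numbers did not pair the libraries, since deviations of same-numbered libraries had correlations of -0.01, -0.09 and 0.01. Of all tested genes, 1505 in the reported fit, 827 and 826 were called by limma at the larger and smaller pseudocount, and 791 to 1586 with a library left out. The lowest was without TKT overexpression replicate 1, and 881 were called without control replicate 1. The 13 other carbohydrate genes went to 7 and 8 by limma, and to between 8 and 12 with a library left out (8 without control replicate 3 or TKT overexpression replicate 3). Scaling moved the median of all tested genes by less than 0.01 and no member's direction was changed by it. The G6PC1 change was 0.11 with limma on log2(FPKM + 1), and no gluconeogenesis gene was left under the stricter filter. With a library left out, the median of the oxidative arm lay between 0.031 and 0.076 (0.031 without TKT overexpression replicate 1) and that of the non-oxidative arm between -0.056 and 0.0012. TALDO1 lay between -0.066 and 0.0012, turning to 0.0012 without control replicate 1 and 0.00067 without TKT overexpression replicate 3. PRPS1, at -0.02, lay between -0.052 and 0.0022 over the alternatives, and PGM2, at -0.03, between -0.066 and 0.019. PGLS lay between -0.13 and 0.021, turning to 0.021 without TKT overexpression replicate 3, and the difference in the ALDOA share of aldolase FPKM, -2.11 percentage points, lay between -4.06 and 0.117, turning to 0.117 without TKT overexpression replicate 2. The ALDOA share rests on a row whose low value was not read as its expression. For the PGM1 share the difference, -1.16 points, lay between -2.16 and -0.284. The ratio of TKT to TALDO1 in control was 0.333 in FPKM and 0.486 per kilobase of the principal transcript. The causes of these shifts were not tested. With 3 libraries a group, the spread between cultures limits the precision of the small changes, and members listed near 0 counts could not be compared.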
